A study of Homo sapiens with 11 samples.

Results

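The baseline difference between a breast and an ovarian cancer line was read from the 5 arrays of cells that received a control miRNA, out of 11 arrays in the series. MDA-MB-231, a human breast cancer line of the triple-negative kind, had 3 such arrays, and SKOV3, a human ovarian cancer line, had 2. The arrays were chosen by their labels alone, as every array of either line with the control miRNA and none with the miR-365a-3p mimic. RNA was taken 48 h after transfection by the sample labels, whereas the design text of the series gives 24 h. The ovarian line is SKOV3 in the labels and its derivative SKOV3.ip1 in the methods, and no dose or sequence of the control miRNA is given in the sources used here. The 6 arrays with miR-365a-3p, 3 of each line, served only to ask whether a difference had the same direction in arrays that were not used for the calls. Every array came from transfected cells, so the values are those of transfected and not of untouched cells.

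Carcinoma lines differ in how much of the epithelial program they keep. Epithelial cells hold together through cadherins, claudins, desmosomes and keratins, and in the epithelial-mesenchymal transition factors such as ZEB1 and TWIST1 reduce these genes while vimentin and matrix genes increase. MDA-MB-231 is known as a mesenchymal-like line with active ERK signaling, and SKOV3 as a line with an amplified ERBB2 gene. HOX genes, which set position along the body axis in the embryo, and lineage factors such as PAX8 and SOX17 of the Müllerian duct often stay as a trace of the tissue of origin.

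The arrays measured 31325 gene symbols as 1 log2 value each, and the floor of unexpressed genes lay near 7.3. A value above 8 is called above the floor here and a lower one at the floor, and between 7044 and 8026 genes per control array passed it. Within a line the arrays correlated at 0.987 to 0.997 across genes, and between the lines at 0.925 to 0.937. Genes are not independent replicates, so these are descriptions. No source says whether the arrays of a line came from separate cultures, and p-values then measure only the spread between these arrays, which may be technical. No slide is named, so line and array batch cannot be told apart. Values below are quantile-normalized log2 values in array order, a difference is MDA-MB-231 minus SKOV3, and p-values are those of limma adjusted over all genes.

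MDA-MB-231 and SKOV3 differed in 5853 genes at an adjusted p under 0.05, which is 18.7% of all genes. Of these, 2707 (8.64%) were higher in MDA-MB-231 and 3146 (10.04%) were higher in SKOV3. Among the 8537 genes above 8 in either line the shares were 23.9% and 25.5%. With a difference of at least 1 as well, 990 genes remained (3.16%), of which 463 (1.48%) were higher in MDA-MB-231 and 527 (1.68%) in SKOV3. The split depended on the scaling, and 46.2% of the calls were higher in MDA-MB-231 here against 36.0% with the values as deposited and 38.4% with each array centered on its median. With 1 SKOV3 array left out the counts fell to 1112 and 1577 (without replicate 1) or 1130 and 1674 (without replicate 2). In the miR-365a-3p arrays 1883 genes (6.01%) were higher in MDA-MB-231 and 1580 (5.04%) in SKOV3. Of all 5853 calls in the controls, 5383 (92.0%) had the same direction there. Fewer, 2515 (43.0%), were also called in that direction, and 3 were called in the opposite direction. Of the 990 genes that differed by at least 1 in the controls, 971 (98.1%) had the same direction there and 732 (73.9%) were also called, and 0 were called in the opposite direction. An exact permutation of 3 against 2 arrays has 10 arrangements and cannot give a p below 0.1, so it is not used for single genes.

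Of the 4 genes that mark the lines, 1 did not pass the test. VIM, vimentin, the intermediate filament of mesenchymal cells, measured 13.71, 13.89 and 13.82 in MDA-MB-231 and 13.70 and 13.69 in SKOV3 (difference 0.11, SE 0.059, adjusted p = 0.331). Both lines were therefore far above the floor for this mesenchymal marker, and SKOV3 lay just below the lowest MDA-MB-231 array. AXL, the receptor tyrosine kinase for GAS6, measured 12.69, 12.59 and 12.78 in MDA-MB-231 and 11.53 and 11.52 in SKOV3 (difference 1.16, SE 0.059, adjusted p = 0.00041). The AXL groups did not overlap, but the call was lost with all 11 arrays in one fit (adjusted p = 0.117), and the difference was -0.12 in the miR-365a-3p arrays. ERBB2, the HER2 receptor, measured 7.72, 7.60 and 7.79 against 10.89 and 10.80, so that it was at the floor in MDA-MB-231 and clearly above it in SKOV3 (difference -3.14, SE 0.066, adjusted p = 4.23e-05). Its difference was -1.80 in the miR-365a-3p arrays. CDH1, E-cadherin, was near the floor in both lines with 7.29, 7.24 and 7.28 against 7.48 and 7.45, and its small difference (-0.19, adjusted p = 0.0112) lost its call without either SKOV3 array.

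Several of the genes with the largest differences were at the floor in one line and well above it in the other. Some, such as CTGF in SKOV3 and S100A4 and CD24 in MDA-MB-231, were above 8 in the lower line too. SRGN, serglycin, a proteoglycan of secretory granules, measured 12.14, 12.60 and 12.26 in MDA-MB-231 and 7.45 and 7.47 in SKOV3 (difference 4.87, SE 0.14, adjusted p = 9.76e-05). ARHGDIB, an inhibitor of small GTPases, differed by 4.31, RAC2, a small GTPase of blood cells, by 3.56, and LPXN, a focal adhesion adaptor, by 3.43. All 4 are best known from blood cells. CTGF, a secreted matricellular protein and YAP target, measured 12.57, 12.61 and 12.93 against 8.63 and 8.59 (difference 4.09), and ANKRD1, another YAP target, differed by 3.36. DKK1, a secreted WNT inhibitor, was 3.45 higher in MDA-MB-231. UQCRH, a subunit of respiratory complex III, and its near copy UQCRHL were at the floor in SKOV3 (means 7.38 and 7.57) and 3.78 and 4.13 higher in MDA-MB-231, and XAGE1A, a cancer-testis antigen with near-identical copies, was 3.43 higher. Probes may not tell such copies apart.

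In SKOV3 the largest difference was that of S100A4, a calcium-binding protein tied to cell motility, with 13.66 and 13.64 against 8.27, 8.31 and 8.05 in MDA-MB-231 (difference -5.44, SE 0.086, adjusted p = 2.27e-05). CD24, a surface glycoprotein of epithelial cells, followed at -4.53, VCAN, the matrix proteoglycan versican, at -4.43, and MMP1, interstitial collagenase, at -4.29. QPRT, an enzyme of NAD synthesis, differed by -4.19, MAL, a raft protein of apical transport, by -3.92, and CD70, the ligand of CD27, by -3.85. MMP7, matrilysin, differed by -3.84 and HSPA1A, an inducible HSP70, by -3.81. The 10 leading genes in each direction had the same direction in the miR-365a-3p arrays, as the values of ANKRD1 (4.10) and MAL (-2.67) show for both ends.

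**Figure D1:**
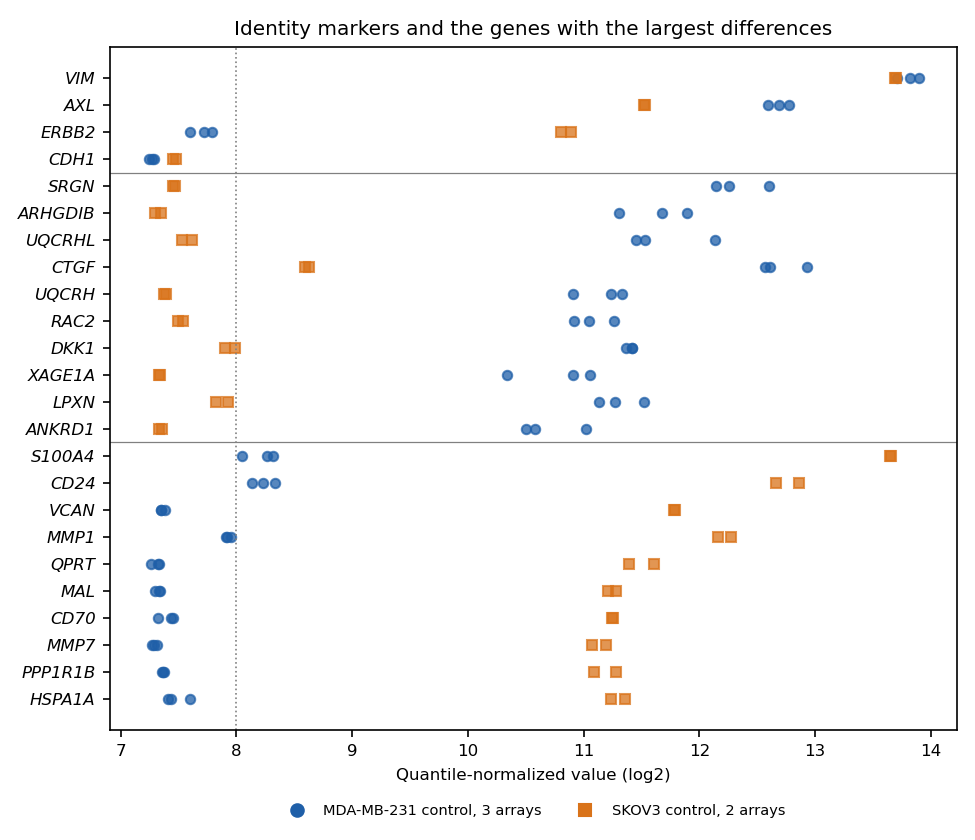
Quantile-normalized log2 values (x axis) of 4 marker genes, the 10 genes with the largest difference toward MDA-MB-231 and the 10 toward SKOV3 (y axis), with 1 point per control array and a dotted line at 8. VIM is close to 13.8 in both lines, whereas SRGN to ANKRD1 are high in the 3 MDA-MB-231 arrays and S100A4 to HSPA1A in the 2 SKOV3 arrays, with no overlap.

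The epithelial genes that were called were mostly higher in SKOV3. Of 54 junction, keratin and epithelial factor genes, 25 were higher in SKOV3 and 5 in MDA-MB-231, with a list median of -0.11 against 0.00 over all genes, and 18 and 1 of them kept the call under every alternative. EPCAM, an epithelial adhesion molecule, measured 7.73, 7.75 and 7.74 in MDA-MB-231 and 10.50 and 10.26 in SKOV3 (difference -2.64, SE 0.075, adjusted p = 9.53e-05). The same gene is also listed under its older symbol TACSTD1, with a difference of -2.78. MAL2 of apical transport (-2.12), the epithelial transcription factors ELF3 (-1.45) and OVOL2 (-1.10), the mucin MUC1 (-1.26), the tight junction proteins F11R (-1.17) and CLDN1 (-0.95), the desmosome protein DSP (-0.89) and the keratins KRT19 (-1.14) and KRT8 (-0.92) were all higher in SKOV3. KRT18 was not called (difference 0.12, adjusted p = 0.734). EVPL (0.51) and AP1M2 (0.50) were called toward MDA-MB-231, calls that some alternatives lost. Of the 54 genes, 24 were not called and 31 were at or below 8 in both lines. GRHL2 (7.33 and 7.30), ESRP2 (7.36 and 7.34) and CLDN4 (7.36 and 7.40) were at the floor in both.

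Mesenchymal genes were called in both directions, more of them toward SKOV3. Of 44 genes, 8 were higher in MDA-MB-231 and 13 in SKOV3, 2 and 7 by at least 1, and 3 and 9 kept the call under every alternative. The median difference was -0.01. NT5E, the CD73 ectonucleotidase, had a mean of 11.68 ± 0.286 (SD, n = 3) against 8.66 ± 0.0579 (n = 2) (difference 3.02, SE 0.17, adjusted p = 0.000541), and EMP3 was 0.96 higher in MDA-MB-231. In SKOV3 the actin-binding proteins TPM2 (-3.05) and TAGLN (-2.10), the caveola protein CAV2 (-2.04), the matrix proteins SPARC (-1.40) and TGFBI (-1.32), N-cadherin CDH2 (-0.92) and the factor TWIST1 (-0.89) were higher. SKOV3 thus carried higher values of these mesenchymal genes together with the epithelial ones. ZEB1, a repressor of epithelial genes, measured 7.91, 7.65 and 7.76 against 7.45 and 7.48, which missed the threshold (adjusted p = 0.0618) but passed it with median centering (0.0465) and with cyclic loess (0.0485), among others. CD44 (0.74, adjusted p = 0.0336) was one of the calls toward MDA-MB-231 that some alternatives lost.

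ZEB and SNAIL factors bind the E-box written CAGGTG, and the promoters of the epithelial genes were searched for it on both strands. RefSeq promoter sequence (GRCh38.p14, the 250 bases before the start) was matched for 14 of the 25 epithelial genes higher in SKOV3. The E-box was in 7 of them (50.0%), namely DSP, DSG2, ELF3, CDS1, MUC1, S100A14 and MAP7, and in 17.5% of all 27305 promoters of that length. A match of letters is a description and not a binding site. The promoter of MUC1 on the minus strand at chr1:155192916-155193165 is shown as one with 2 matches, in capitals, which read CACCTG, the same E-box on the other strand, and lie side by side.
MUC1: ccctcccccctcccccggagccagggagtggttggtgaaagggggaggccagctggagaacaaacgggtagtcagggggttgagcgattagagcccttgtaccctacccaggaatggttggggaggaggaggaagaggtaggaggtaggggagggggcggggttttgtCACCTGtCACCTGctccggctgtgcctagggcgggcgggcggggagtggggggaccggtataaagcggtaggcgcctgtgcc

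**Figure D2:**
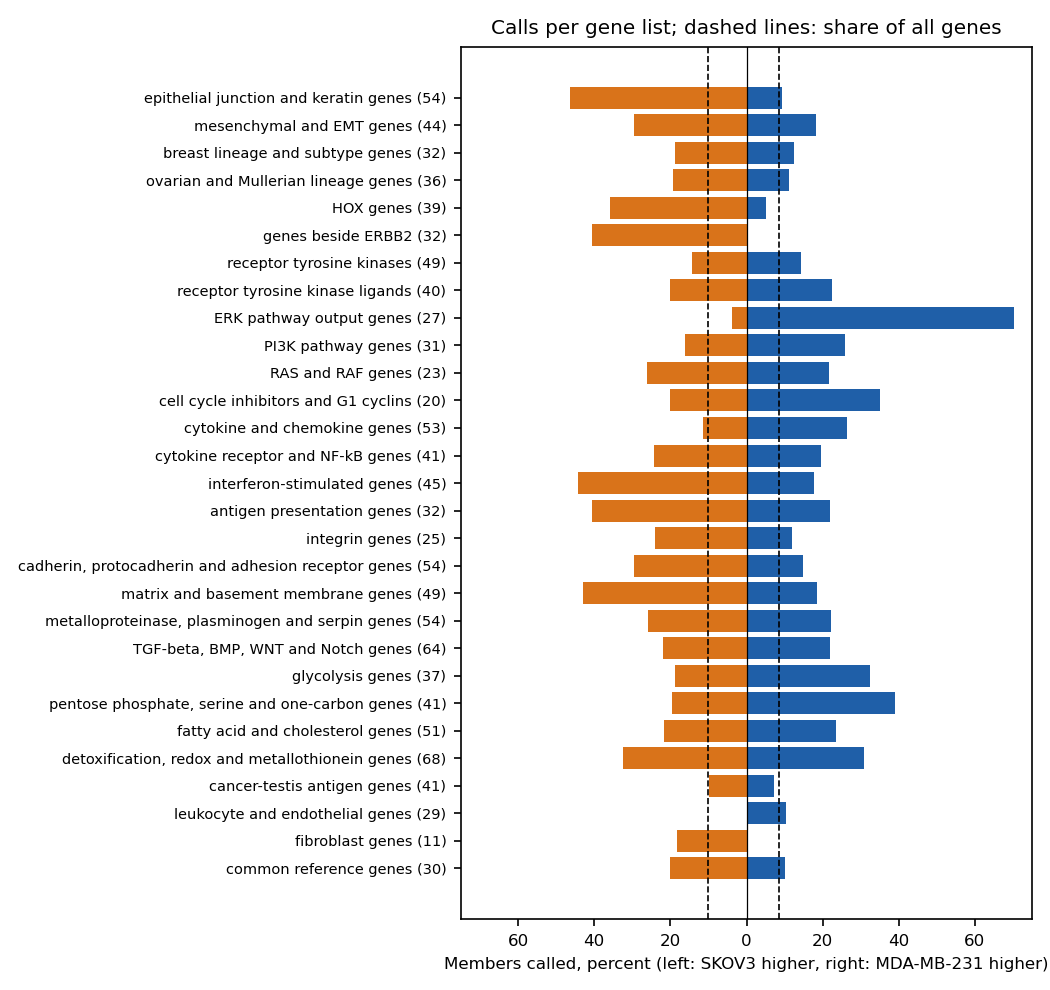
Percent of the members of the gene lists reported here (number of genes in parentheses) called higher in SKOV3 (left, orange) or in MDA-MB-231 (right, blue) at an adjusted p under 0.05, with dashed lines at the share of all genes (10.04% and 8.64%). Genes of ERK pathway output reach 70.4% toward MDA-MB-231, and epithelial, interferon-stimulated and matrix genes reach over 40% toward SKOV3.

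Lineage genes of the breast and of the Müllerian tract were called in both directions. Of 32 breast genes, 4 (12.5%) were higher in MDA-MB-231 and 6 (18.8%) in SKOV3, against 8.64% and 10.04% of all genes. KRT81, a hair keratin found in breast cancer lines, measured 8.56, 8.63 and 8.54 against 7.65 and 7.59 (difference 0.96, adjusted p = 0.000275). ESR1, the estrogen receptor, was at the floor in MDA-MB-231 and higher in SKOV3 with 8.97 and 8.99 (difference -1.70, SE 0.038, adjusted p = 5.44e-05), as was CRYAB (-0.98). CA12 was above 8 in both lines (means 9.33 and 10.40) and higher in SKOV3 (-1.06). GATA3, the luminal factor, was at the floor in both lines (means 7.43 and 7.28, adjusted p = 0.0617), and PGR, the progesterone receptor, was also at the floor (7.28 and 7.29).

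Of 36 ovarian and Müllerian genes, 7 (19.4%) were higher in SKOV3 and 4 (11.1%) in MDA-MB-231, against 10.04% and 8.64% of all genes. Of the 11 calls, 10 were kept under every alternative. PAX8, the Müllerian lineage factor, measured 7.46, 7.42 and 7.41 in MDA-MB-231 and 8.36 and 8.36 in SKOV3 (difference -0.93, SE 0.029, adjusted p = 0.000108). In the miR-365a-3p arrays its difference was -0.08 (adjusted p = 0.11). SOX17, its frequent partner, differed by -1.16, the folate receptor FOLR1 by -0.81 and mesothelin, MSLN, by -0.70. EVI1, listed now as MECOM, measured 9.32, 8.70 and 9.04 against 11.03 and 11.04 (difference -2.02, adjusted p = 0.00219). WT1 and MUC16, which encodes the CA-125 antigen, lay at the floor in both lines (WT1 means 7.38 and 7.38, MUC16 means 7.39 and 7.40). The nuclear receptors NR2F2 (0.96) and NR2F1 (0.74) were higher in MDA-MB-231.

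HOX genes separated the lines by cluster. Of 39 HOX genes, 14 were higher in SKOV3 and 2 in MDA-MB-231. Of the 14, 7 were of the 10 HOXB genes, 4 of the 11 HOXA genes and 3 of the 9 HOXD genes, whereas 0 of 9 HOXC genes were higher in SKOV3. HOXB7 measured 7.37, 7.27 and 7.38 in MDA-MB-231 and 10.45 and 10.49 in SKOV3 (difference -3.13, SE 0.044, adjusted p = 2.08e-05), HOXB5 differed by -3.15, HOXB2 by -2.95, HOXB8 by -2.65 and HOXB6 by -1.14. These 5 neighbors were above 8 in SKOV3 and at the floor in MDA-MB-231, while HOXB3 (7.78) and HOXB4 (7.81) stayed below 8 in SKOV3 between them. HOXA5 was the HOXA gene above 8, with 9.44 and 9.13 in SKOV3 against 7.32, 7.34 and 7.26 (difference -1.97). The calls toward MDA-MB-231 were HOXC8 (0.34) and HOXD4 (0.30), with all values below 8. Of the 16 called HOX genes, 11 kept the call under every alternative and all 16 had the same direction in the miR-365a-3p arrays, where the difference of HOXB5 was -0.94.

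**Figure D3:**
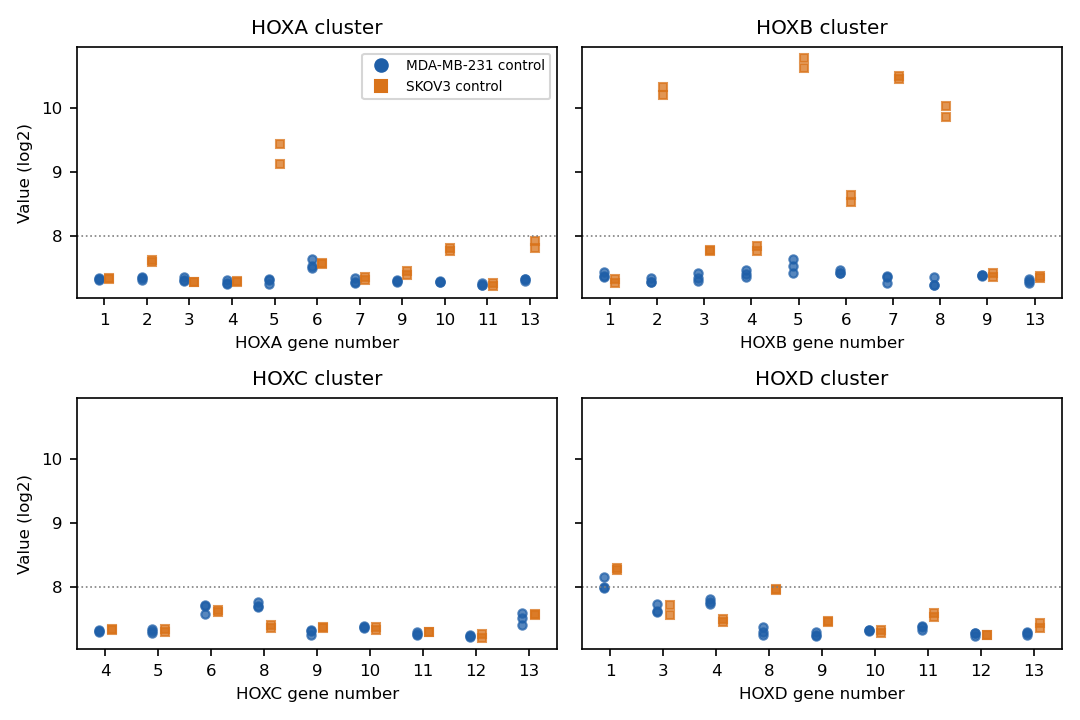
Quantile-normalized log2 values (y axis) of HOX genes by gene number in the 4 clusters (x axis), with 1 point per control array (blue circles MDA-MB-231, orange squares SKOV3) and a dotted line at 8. In SKOV3, HOXB2, HOXB5, HOXB6, HOXB7 and HOXB8 and HOXA5 stand above the line, and the 3 MDA-MB-231 arrays lie near the floor in the HOXA, HOXB and HOXC clusters. HOXD1, which was not called, has a mean above 8 in both lines (8.05 in MDA-MB-231 and 8.28 in SKOV3).

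ERBB2 lies on chromosome 17 among genes that are often amplified with it. In SKOV3, 13 of 32 genes of this neighborhood were higher and 0 were lower, with a median of -0.20. PPP1R1B, a phosphatase inhibitor, measured 7.36, 7.37 and 7.37 in MDA-MB-231 and 11.28 and 11.09 in SKOV3 (difference -3.82, SE 0.062, adjusted p = 2.39e-05). STARD3, a cholesterol transporter, differed by -2.00, PGAP3, an enzyme of GPI anchors, by -2.35, GRB7, an adaptor of ERBB2, by -1.36 and MIEN1, deposited as C17orf37, by -0.83. TCAP, the muscle gene that lies between STARD3 and PNMT, was at the floor in both lines (means 7.33 and 7.47, adjusted p = 0.0936), and PNMT differed by -0.45. The next listed genes on either side, IKZF3 (means 7.38 and 7.40) and NEUROD2 (7.33 and 7.36), were at the floor in both lines. Their differences of -0.03 and -0.04 therefore cannot show how far the higher values extend. Farther out the largest difference was -0.70 for FBXL20, and PSMD3 (-0.65), ORMDL3 (-0.59) and MLLT6 (-0.55) were also called toward SKOV3. The calls of PNMT and C17orf37 were lost with 11 arrays in one fit (adjusted p = 0.0917 and 0.0957). GRB7 differed by -0.37 and C17orf37 by -0.82 in the miR-365a-3p arrays. Copy number was not measured.

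**Figure D4:**
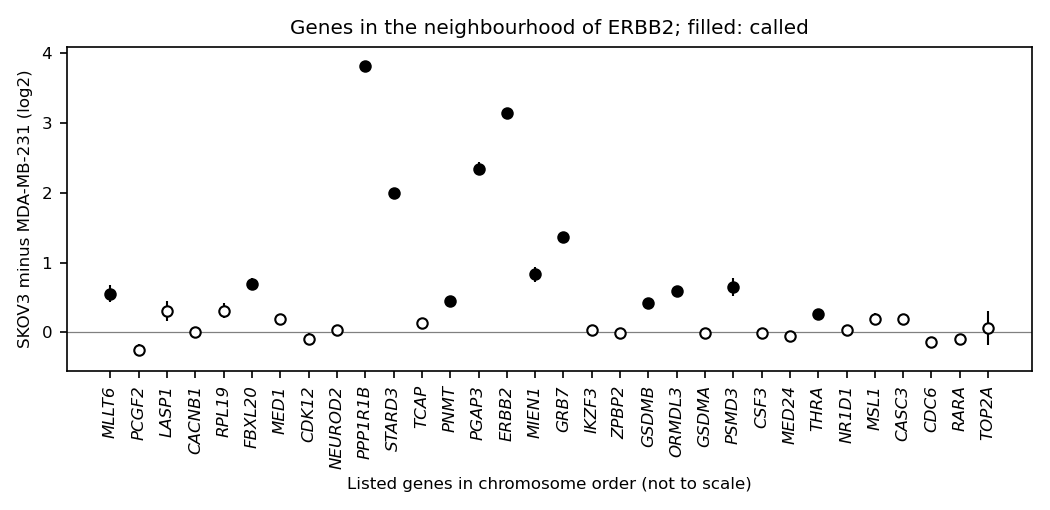
Difference of the control arrays, SKOV3 minus MDA-MB-231 on the log2 scale (y axis, bars are the SE of the fit), for the listed genes in chromosome order around ERBB2 (x axis, not to scale), with filled points for genes at an adjusted p under 0.05. The points from PPP1R1B to GRB7 reach between 0.14 (TCAP) and 3.82 (PPP1R1B), and those outside reach at most 0.70 (FBXL20).

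Receptor tyrosine kinases were called evenly, with 7 of 49 higher in each line. Besides AXL and ERBB2, CSF1R, the receptor of macrophage colony-stimulating factor, was 0.95 higher in MDA-MB-231 and PTK7, a WNT coreceptor, was 0.98 higher in SKOV3. EGFR was close to the floor in both (means 8.01 and 7.73). Among 40 ligands of these receptors, 9 were higher in MDA-MB-231 and 8 in SKOV3. HBEGF, a ligand of EGFR, measured 9.37, 9.12 and 9.43 against 7.55 and 7.52 (difference 1.77, SE 0.10, adjusted p = 0.000548), and GAS6, the ligand of AXL, was 1.34 and VEGFC 1.04 higher in MDA-MB-231. EFNA1, an ephrin ligand, measured 7.42, 7.39 and 7.44 against 9.88 and 9.80 in SKOV3 (difference -2.42), and FGF2 differed by -1.15.

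The genes that ERK signaling induces formed the list with the largest share of calls toward MDA-MB-231. Of 27 genes, 19 were higher in MDA-MB-231 and 1 in SKOV3, 12 by at least 1, and the median was 0.68. Of the 19, 15 kept the call under every alternative and 17 had the same direction in the miR-365a-3p arrays. DUSP6, a phosphatase that acts on ERK, measured 10.31, 10.20 and 10.24 against 7.76 and 7.69 (difference 2.52, SE 0.045, adjusted p = 3.09e-05). The cyclin CCND1 measured 11.85, 11.84 and 12.04 against 9.90 and 9.76 (difference 2.08), and MYC differed by 2.05. The AP-1 subunits FOSL1 (1.60) and JUN (1.36), the feedback inhibitors SPRY2 (1.57), SPRED1 (1.40) and DUSP5 (1.41), the factor ETV5 (1.27) and the protease PLAU (1.43) with its receptor PLAUR (1.10) were also higher in MDA-MB-231. EGR1 was the one called toward SKOV3 (-0.75, adjusted p = 0.0227), and FOS was not called.

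The same differences were smaller in the miR-365a-3p arrays for several of these genes, with 1.43 for DUSP6, 1.50 for MYC, 0.99 for CCND1 (adjusted p = 0.3), 0.06 for FOSL1 and -0.20 for EMP1. The change between the control and miR-365a-3p comparisons was not tested.

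The genes of the RAS and RAF cascade itself were called in both directions. Of 23 genes, 5 were higher in MDA-MB-231 and 6 in SKOV3. BRAF was at the floor in both lines (7.32 and 7.33). MAPK3, which encodes ERK1, was 1.43 higher and RRAS2 1.08 higher in SKOV3, whereas MAP2K1, which encodes MEK1, was 0.89 higher in MDA-MB-231. RASA1, a RAS GTPase activator, was 0.97 higher in MDA-MB-231, a call lost without SKOV3 replicate 1 (adjusted p = 0.054).

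Of 31 PI3K pathway genes, 8 were higher in MDA-MB-231 and 5 in SKOV3. IRS1, an adaptor of the insulin receptor, had a mean of 9.15 ± 0.159 (SD, n = 3) against 7.48 ± 0.024 (n = 2) (difference 1.67, SE 0.096, adjusted p = 0.000575), and the kinase SGK1 was 1.20 higher in MDA-MB-231. FOXO1, a factor that AKT keeps out of the nucleus, was at the floor in MDA-MB-231 and measured 9.18 and 9.34 in SKOV3 (difference -1.65). Its difference was -0.18 in the miR-365a-3p arrays. IRS2 (1.29) was called toward MDA-MB-231 but lost the call without either SKOV3 array.

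Of 20 cell cycle inhibitors and G1 cyclins, 7 were higher in MDA-MB-231 and 4 in SKOV3. All 3 D-type cyclins were among the former, with CCND2 measuring 9.65, 9.15 and 9.28 against 7.30 and 7.33 (difference 2.04, SE 0.15, adjusted p = 0.00126) and CCND3 differing by 0.96. CCND2 differed by 0.18 in the miR-365a-3p arrays. CDKN1A, the p21 inhibitor of cell cycle kinases, measured 9.41, 9.09 and 9.34 against 7.91 and 7.85 (difference 1.40, adjusted p = 0.0011). CDKN2A, the p16 gene, was at the floor in both lines (7.34 and 7.31, adjusted p = 0.707), and its neighbor MTAP, a methionine salvage enzyme, was 0.51 higher in SKOV3 (7.91 and 7.86), although below 8 in both lines.

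Cytokine genes were called more often toward MDA-MB-231. Of 53 genes, 14 were higher in MDA-MB-231 and 6 in SKOV3. IL8, a neutrophil chemokine, measured 9.60, 9.86 and 9.48 against 7.87 and 7.88 (difference 1.78, SE 0.12, adjusted p = 0.000817), and BMP4 (1.50), IL11 (1.13), PTX3 (0.90) and IL1B (0.84) were higher in MDA-MB-231 as well. IL6 was close to the floor in both lines (means 7.69 and 7.43). TNFSF10, the death ligand TRAIL, was at the floor in MDA-MB-231 and measured 9.47 and 9.62 in SKOV3 (difference -2.29, SE 0.052, adjusted p = 5.44e-05), and the chemokine CXCL1 differed by -0.89. Of 41 receptor and NF-kB genes, 8 were higher in MDA-MB-231 and 10 in SKOV3. The interleukin-1 receptor IL1R1 was at the floor in MDA-MB-231 and 1.09 higher in SKOV3, SOD2 was 1.20 higher in SKOV3, and TNFRSF21 was 0.90 higher in MDA-MB-231. NFKBIA differed by -1.11 (adjusted p = 0.0326), a call lost without either SKOV3 array.

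Interferon-stimulated genes were called more often toward SKOV3. Of 45 genes, 20 were higher in SKOV3 and 8 in MDA-MB-231, but 8 and 1 of these kept the call under every alternative. BST2, tetherin, measured 7.59, 7.70 and 7.77 against 10.12 and 9.99 (difference -2.37, SE 0.070, adjusted p = 0.000103), IFITM3 differed by -1.79 and EPSTI1 by -1.14. HERC5 (-1.32) and IFITM2 (-1.29) lost the call without SKOV3 replicate 1 (adjusted p = 0.166 and 0.0516). IFIT2 went the other way (0.96, adjusted p = 0.00488), and IFNB1, which encodes interferon beta, was at the floor in both lines (7.25 and 7.28).

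Antigen presentation genes split by class. MHC class I molecules show peptides cut inside the cell to CD8 T cells, and class II molecules, usual in antigen-presenting cells, show peptides taken up from outside. Of 32 genes, 13 were higher in SKOV3 and 7 in MDA-MB-231, and 10 and 5 of these kept the call under every alternative. HLA-E measured 9.34, 9.37 and 9.52 in MDA-MB-231 and 10.81 and 10.65 in SKOV3 (difference -1.32, SE 0.076, adjusted p = 0.000578). HLA-B (-1.37), HLA-F (-1.68) and HLA-G (-1.47) also stood higher in SKOV3, as did the peptide transporter TAP1 (-1.46), the immunoproteasome subunits PSMB8 (-1.06) and PSMB10 (-0.95) and the peptide trimmer ERAP2 (-2.25). Class I genes are alike in sequence and a probe can read several of them, and HLA-C was at the floor in both lines (7.51 and 7.48).

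The class II genes ran in the opposite direction. HLA-DRA measured 10.29, 10.59 and 10.16 in MDA-MB-231 and 7.81 and 7.73 in SKOV3 (difference 2.57, SE 0.13, adjusted p = 0.000438). Its chaperone CD74 measured 8.95, 9.42 and 9.24 against 7.27 and 7.27 (difference 1.93), and HLA-DPA1 (1.43) and HLA-DMA (1.29) were also higher in MDA-MB-231. All 4 lay at the floor in SKOV3. CD74 differed by 0.22 in the miR-365a-3p arrays, whereas HLA-DRA differed by 3.32, HLA-DPA1 by 1.76 and HLA-DMA by 1.56 there. CIITA, the coactivator of class II genes, and HLA-DRB1 were not called. MICB, a ligand of the NK receptor NKG2D, was 1.70 higher in MDA-MB-231.

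**Figure D5:**
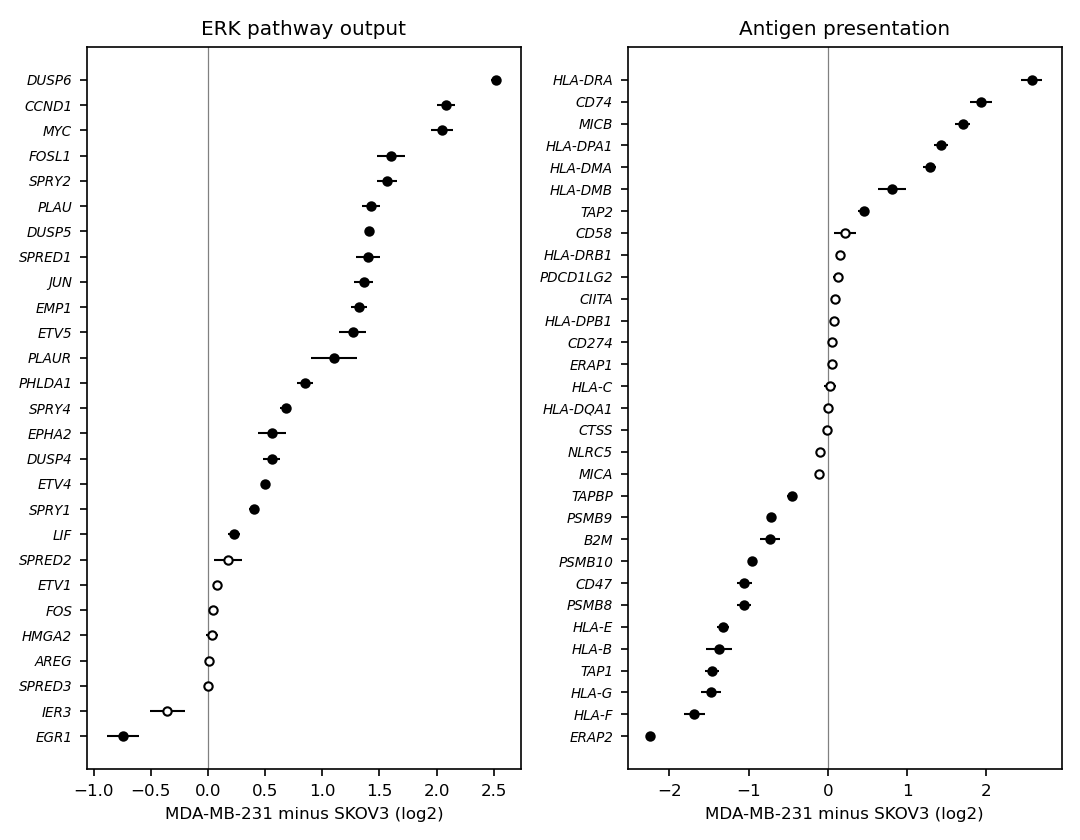
Difference of the control arrays, MDA-MB-231 minus SKOV3 on the log2 scale (x axis, bars are the SE of the fit), for genes of ERK pathway output (left) and of antigen presentation (right), with filled points for an adjusted p under 0.05. On the left most points lie right of 0 up to 2.52 for DUSP6, and on the right the class II genes HLA-DRA and CD74 lie at one end and ERAP2 and the class I genes at the other.

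Integrins and other adhesion genes were called in both directions. Of 25 integrin genes, 3 were higher in MDA-MB-231 and 6 in SKOV3, and 2 and 1 of these kept the call under every alternative. ITGA2, the collagen-binding alpha 2 subunit, measured 10.28, 10.30 and 10.35 against 7.57 and 7.68 (difference 2.68, SE 0.044, adjusted p = 2.41e-05), while in the miR-365a-3p arrays its difference was 0.16 (adjusted p = 0.21). ITGB2, the leukocyte beta 2 subunit, was 0.74 higher in MDA-MB-231. Of 54 cadherin, protocadherin and adhesion receptor genes, 8 were higher in MDA-MB-231 and 16 in SKOV3, and 2 and 10 of these kept the call under every alternative. CDH4 was 1.26 higher in MDA-MB-231 but differed by 0.00 in the miR-365a-3p arrays (adjusted p = 0.936). CDH6 (-1.57), PCDHB2 (-1.43) and NRCAM (-1.33) were higher in SKOV3.

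Matrix genes were called in both directions, more of them toward SKOV3. Of 49 matrix and basement membrane genes, 21 were higher in SKOV3 and 9 in MDA-MB-231, with a median of -0.15, and 22 of the 30 kept the call under every alternative. The matricellular genes CYR61 (2.96) and THBS1 (2.13), like CTGF, and the collagens COL13A1 (2.82) and COL8A1 (1.68) were higher in MDA-MB-231, as was COL4A5 of basement membranes (0.62). SPP1, osteopontin, measured 7.46, 7.40 and 7.40 against 11.12 and 11.21 in SKOV3 (difference -3.75, SE 0.041, adjusted p = 1.25e-05), and the basement membrane genes NID2 (-2.40), COL18A1 (-1.74) and LAMB1 (-1.01) were higher there too. VCAN measured 7.35, 7.35 and 7.38 against 11.79 and 11.79. FN1, fibronectin, is listed at the floor in both lines (7.34 and 7.32), a value that could not be checked probe by probe. In the miR-365a-3p arrays the difference of VCAN was -2.15 and that of NID2 -0.30.

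Of 54 metalloproteinase, plasminogen and serpin genes, 12 were higher in MDA-MB-231 and 14 in SKOV3. The plasminogen system had a call toward MDA-MB-231, where PLAT, tissue plasminogen activator, measured 9.90, 9.67 and 9.74 against 7.56 and 7.54 (difference 2.22, SE 0.073, adjusted p = 0.000127). F2RL1, a receptor cleaved by proteases, was 2.02 higher in MDA-MB-231. MMP1 measured 7.95, 7.92 and 7.91 against 12.16 and 12.27 in SKOV3, and MMP7 7.29, 7.27 and 7.32 against 11.19 and 11.07. MMP10 (-1.60) and the protease inhibitor SLPI (-2.08) were also higher in SKOV3.

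Of 64 TGF-beta, BMP, WNT and Notch genes, 14 were higher in each line. DKK1 measured 11.36, 11.42 and 11.42 in MDA-MB-231 and 7.99 and 7.91 in SKOV3, and a second WNT modulator, DKK3, ran the other way with 7.46, 7.44 and 7.43 against 9.98 and 9.88 (difference -2.49, SE 0.038, adjusted p = 2.16e-05). The 4 ID genes, which encode inhibitors of helix-loop-helix factors and respond to BMP, were higher in SKOV3, by 2.28 (ID1), 2.59 (ID2), 1.81 (ID3) and 1.23 (ID4). The ligand BMP4 and the BMP and activin antagonist FST (1.42) were higher in MDA-MB-231, as were the receptor TGFBR2 (1.97) and SMAD3 (1.20), whereas SMAD4 (-1.28) and SMAD6 (-1.12) were higher in SKOV3.

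Metabolic genes differed in both directions. Of 37 glycolysis genes, 12 were higher in MDA-MB-231 and 7 in SKOV3. HK2, a hexokinase, measured 9.43, 9.43 and 9.44 against 7.74 and 7.73 (difference 1.70, SE 0.025, adjusted p = 2.08e-05), the glucose transporter SLC2A3 was 2.33 and PFKFB4 1.29 higher in MDA-MB-231. ALDOA was 1.40 higher in SKOV3 (adjusted p = 0.0107, not called without either SKOV3 array), and SLC2A1, LDHA and GAPDH were not called. SLC2A3 differed by 0.38 and HK2 by 0.25 in the miR-365a-3p arrays.

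Genes of serine, one-carbon and amino acid metabolism were called more toward MDA-MB-231, with 16 of 41 higher there and 8 in SKOV3. BCAT1, a transaminase of branched-chain amino acids, measured 10.22, 10.05 and 9.75 against 7.85 and 7.97 (difference 2.10, SE 0.14, adjusted p = 0.000961). Asparagine synthetase ASNS (1.97), GOT1 (1.91), the glutamine transporter SLC1A5 (1.69), PSAT1 (1.65) and SHMT2 (1.23) were higher in MDA-MB-231. ASS1 of arginine synthesis was 1.70 higher in SKOV3. BCAT1 differed by 0.34 in the miR-365a-3p arrays, ASNS by 1.21, GOT1 by 1.18 and ASS1 by -1.56.

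Of 51 fatty acid and cholesterol genes, 12 were higher in MDA-MB-231 and 11 in SKOV3. PLIN2, a coat protein of lipid droplets, measured 10.45, 10.03 and 10.53 against 7.38 and 7.38 (difference 2.96, SE 0.16, adjusted p = 0.000479), and the elongase ELOVL6 was 1.61 higher in MDA-MB-231. The cholesterol synthesis genes HMGCS1 (-1.59), FDFT1 (-1.43) and SQLE (-1.11) were higher in SKOV3, although SQLE lost the call under some alternatives.

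Detoxification, redox and metallothionein genes were the longest list, with 21 of 68 higher in MDA-MB-231 and 22 in SKOV3, and 32 of the 43 kept the call under every alternative. Of the metallothioneins, small proteins that bind zinc and copper, 5 were higher in MDA-MB-231, whereas MT1F was 0.16 higher in SKOV3 with all values below 8, and MT1H and MT1M were at the floor in both lines. MT1E had a mean of 10.36 ± 0.463 (SD, n = 3) against 7.54 ± 0.00343 (n = 2) (difference 2.82, SE 0.27, adjusted p = 0.00257), and MT1A (2.38), MT2A (2.17), MT1X (1.99) and MT1G (1.94) followed. These genes are near-identical and a probe may read several of them. GPX3, a secreted glutathione peroxidase, was 2.69 higher in MDA-MB-231. In SKOV3, CYP1B1, a cytochrome P450 that acts on estrogens, measured 11.59 and 11.71 against 8.25, 8.33 and 8.24 (difference -3.38, SE 0.050, adjusted p = 2.08e-05). The glutathione transferase GSTP1 (-2.88), the methyltransferase NNMT (-2.85), the reductases AKR1C3 (-2.56) and AKR1B1 (-2.13) and the peroxidase GPX4 (-1.74) were higher in SKOV3 too.

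Metallothionein genes are known to be switched on by metals through the metal response element, searched here as TGCACNC or TGCGCNC on both strands. RefSeq promoters were matched for 2 of the 5 metallothionein genes higher in MDA-MB-231, and both held it, against 24.7% of all promoters. The 250 bases before the start of MT2A (plus strand, chr16:56608334-56608583) have 7 matches and those of MT1X (plus strand, chr16:56682220-56682469) have 4, in capitals.
MT2A: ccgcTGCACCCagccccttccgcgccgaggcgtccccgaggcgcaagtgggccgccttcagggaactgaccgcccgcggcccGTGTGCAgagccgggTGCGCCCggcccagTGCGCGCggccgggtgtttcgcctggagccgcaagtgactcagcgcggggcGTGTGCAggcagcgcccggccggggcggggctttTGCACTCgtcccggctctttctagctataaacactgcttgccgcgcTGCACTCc
MT1X: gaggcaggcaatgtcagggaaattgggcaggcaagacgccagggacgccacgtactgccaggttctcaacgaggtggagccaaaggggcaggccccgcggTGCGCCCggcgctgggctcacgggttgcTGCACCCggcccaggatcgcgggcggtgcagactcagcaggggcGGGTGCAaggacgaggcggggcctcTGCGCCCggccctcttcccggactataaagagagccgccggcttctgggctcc
For the ERK output genes, the AP-1 site TGANTCA was in 2 of 11 matched promoters (18.2%), those of EMP1 and PLAUR, against 6.6% of all promoters.

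Of 41 cancer-testis antigen genes, 3 (7.32%) were higher in MDA-MB-231 and 4 (9.76%) in SKOV3, close to the 8.64% and 10.04% of all genes. SPANXA1 measured 10.62, 10.28 and 9.93 against 7.50 and 7.54 (difference 2.76, SE 0.20, adjusted p = 0.00112), and SPANXB1 differed by 1.72 and SPANXC by 1.29. The SPANX genes are near-identical, so these are not separate observations. MAGED1, which most tissues express, was 1.10 higher in SKOV3.

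Because several of the genes highest in MDA-MB-231 are best known from blood cells, markers of other cell types were read beside them. Of 29 leukocyte and endothelial genes, 3 were higher in MDA-MB-231 and 0 in SKOV3, and 26 were at or below 8 in both lines. The defining leukocyte genes PTPRC (7.28 and 7.30), CD3E (7.39 and 7.31) and CD14 (7.40 and 7.32) and the endothelial genes PECAM1 (7.41 and 7.42) and CDH5 (7.27 and 7.24) were at the floor. CD68, a macrophage marker, was well above 8 in both lines (means 10.05 and 9.76) and was not called (adjusted p = 0.399). The called ones were ESAM (1.49), CSF1R (0.95) and CD8A (0.19), and the median of the list lay between 7.33 and 7.35 on every control array. Of 11 fibroblast genes, COL1A1 (-1.18) and COL1A2 (-0.47) were higher in SKOV3 and the others, such as COL3A1, DCN and PDGFRB, were at the floor. In the miR-365a-3p arrays COL1A1 differed by -0.03.

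Of 30 common reference genes, 3 were higher in MDA-MB-231 and 6 in SKOV3, with a median of 0.11. GAPDH measured 12.96, 13.38 and 13.36 against 13.12 and 13.17 (difference 0.09, adjusted p = 0.807) and was called without MDA-MB-231 replicate 1 (adjusted p = 0.0187). ACTB did not differ beyond the spread of the arrays (difference -0.02, adjusted p = 0.971). PSMB2, a proteasome subunit proposed as a reference, was 1.30 higher in SKOV3 (adjusted p = 0.0129) and PPIA 0.86 higher in MDA-MB-231 (adjusted p = 0.00573), calls that were lost without either SKOV3 array. PSMB4, another proteasome subunit, was 0.83 higher in SKOV3 and was the one reference gene that kept the call under every alternative.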

How the data were processed

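mRNA was measured on Illumina HumanHT-12 BeadChips in MDA-MB-231 and SKOV3 cells with a control miRNA (3 and 2 arrays) or miR-365a-3p (3 and 3). Quantile normalization by the authors used lumi (version not given in the sources used here), and they deposited 1 log2 value for each of 31325 gene symbols and array. Whether the transformation was log2 or variance-stabilizing, how probes of a gene were combined and whether background was subtracted are not given, so differences near the floor are compressed to an unknown degree and no fold change is stated. Depth does not apply to arrays, and their number limits the precision. Of the symbols, 17755 matched a current RefSeq symbol and 3305 a single older one.

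The deposited columns did not share a distribution and were quantile normalized over the 5 control arrays, and separately over the miR-365a-3p arrays, in limma 3.58.1 with R 4.3.3. A mean per line was fitted (lmFit) with eBayes moderation. The Benjamini-Hochberg adjustment ran over the whole table, with 0.05 as the threshold. The fit had 3 residual degrees of freedom, 4.93 with the prior. Data were simulated from each gene's mean over the control arrays and its moderated variance, with independent normal noise. In them 200 of 31325 genes, all with means above 8, changed by 1, and 81% were recovered with 8 unchanged genes called. Such noise is what the fit assumes, so these figures check the code and do not measure the errors in the real arrays. Whether replicate numbers pair the lines could not be decided. Deviations from the line means correlated at 0.12 for replicate 1 and -0.12 for replicate 2 over 7624 genes. With 2 SKOV3 arrays these deviations mirror each other, so the correlations with SKOV3 replicates 1 and 2 always have opposite signs. The largest were those of MDA-MB-231 replicate 3 (-0.30 and 0.30).

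The arrays, the 31 gene lists and the rule for named genes were chosen with earlier results of these data known. Named are 4 markers, the 10 largest differences in each direction among non-overlapping calls, the 4 largest called in each list, genes from STARD3 to GRB7 and theme genes such as PAX8 (144 genes, 134 called). Some of them and 1 of the lists are not reported here. Other list members were named after their values were seen. Alternatives were the deposited values, median centering, cyclic loess, 1 fit of 11 arrays, genes above 8, intensity trend with robust moderation, a replicate block, an adjusted p under 0.01, a difference of at least 1 and the omission of each array. "Every alternative" means the 11 of these that refit all genes. Set tests were not run.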

Additional observations from a re-analysis of the deposited data

Results flagged for a closer look

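For 2 of the named genes the sign of the difference was opposite in the control and miR-365a-3p arrays, with no overlap between the lines in either. Neither gene was called in the miR-365a-3p arrays. Lack of overlap was common, with 13792 of all genes (44.0%) not overlapping between the lines in the control arrays. ITGA6, the integrin alpha 6 subunit, measured 9.31, 8.95 and 8.97 in MDA-MB-231 and 8.19 and 8.30 in SKOV3 control arrays (difference 0.83, adjusted p = 0.0105), and differed by -0.35 in the miR-365a-3p arrays (adjusted p = 0.11). EGFR differed by 0.28 in the control arrays (adjusted p = 0.0171) and by -0.0195 in the miR-365a-3p arrays (adjusted p = 0.54). The difference between the comparisons was not tested for either gene.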

How the results depend on the processing

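Of the 5853 calls, 4979 (85.1%) were kept under all 3 other scalings, 2433 (41.6%) when each array was left out in turn, and 2178 (37.2%) under all 11 refits of all genes. Of the 990 with a difference of at least 1, 803 (81.1%) were kept under all 11, as were 112 of the 134 named calls (83.6%). Genes higher in MDA-MB-231 and in SKOV3 numbered 1486 and 1907 at an adjusted p under 0.01, 463 and 527 with a difference of at least 1, and 1112 to 3171 and 1577 to 3228 when each array was left out. The lowest counts came without SKOV3 replicate 1, where the lone SKOV3 array is assumed to vary like the others. A replicate block, which left 1 residual degree of freedom, gave 1752 genes higher in MDA-MB-231, and whether the numbers pair the samples could not be decided. In the miR-365a-3p arrays the counts were 834 and 665 at an adjusted p under 0.01, 381 and 357 with a difference of at least 1, 927 to 2049 and 709 to 2274 with each array left out, and 2598 for SKOV3 with 11 arrays in one fit. List members numbered 224 and 285, against 76 and 109 with a difference of at least 1 and 131 to 243 and 189 to 291 with each array left out. Calls lost under at least 1 alternative and not named so above were HLA-B, PLAUR, MT1X, MT1F, IFIT2, EGR1, HOXB4, HOXD4, COL4A5, FBXL20, MLLT6, PSMD3, DSG2, S100A14, ITGA6, SPANXC, CD8A, EGFR and IL6 among the genes reported here, while GATA3, TCAP and ZEB1 gained one under some. The cause was not tested. For genes near the floor, signal over background limits what can be seen.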
